A study of Rattus norvegicus with 8 samples.

Results

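The genes of the urea cycle and of glutamine metabolism were followed in perfused rat liver: Nags, Cps1, Otc, Ass1, Asl, Arg1, Slc25a15, Gls2, Glul and Glud1. The 10 genes were chosen by function, and a gene counted as measured where a probe set carried its symbol and no other. This gave 9 measured genes, with 1 probe set each, of 14506 named genes in all. Glul, which encodes the glutamine synthetase of perivenous hepatocytes, is not analysed here. Livers of male Wistar rats aged 6 to 10 weeks were perfused with a Krebs-Henseleit buffer, a bicarbonate-buffered salt solution. In 4 hypoosmotic samples the buffer had 225 mosm/L, and in 4 normoosmotic samples 305 mosm/L. All 8 samples carry the 120 min time point, and all were isolated organs fed by buffer in place of blood. The labels name no unperfused liver and do not state whether each sample is its own animal, so p-values reflect the variation among these samples, some of which may be technical.

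The urea cycle turns toxic ammonia into urea. In mitochondria of periportal hepatocytes, N-acetylglutamate made by Nags activates Cps1, which joins ammonia and bicarbonate to carbamoyl phosphate, and Otc passes this to ornithine. Citrulline leaves for the cytosol, where Ass1, Asl and Arg1 complete the cycle, and Slc25a15 exchanges ornithine for citrulline across the inner mitochondrial membrane. Gls2, the liver-type glutaminase, releases ammonia from glutamine beside Cps1, Glud1 interconverts glutamate with ammonia and 2-oxoglutarate, and Glul rebuilds glutamine from what escapes. Hepatocytes take up water and swell in a hypoosmotic medium, and their hydration is known to influence the handling of amino acids and glutamine by the liver.

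Each value is a deposited log2 expression value of an Affymetrix array, a 1-colour microarray, so a difference of 1 is a doubling of signal. The comparison of hypoosmotic with normoosmotic samples was fitted with limma across all 14506 genes, and a gene was called at a Benjamini-Hochberg adjusted p under 0.05. The array medians lay between 4.05 and 4.16. Hepatocyte markers were bright in every sample, with Alb at a mean of 13.03 in hypoosmotic and 13.07 in normoosmotic samples. Of 40 measured markers of 7 liver and blood cell types, 0 were called by limma, and 4 reached an unadjusted p under 0.05. Across all genes the share past that p, in either direction, was 14.6%. In whole liver, fewer cells of a type and less RNA per cell cannot be told apart.

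Nags rose in hypoosmotic samples, while the enzymes from Cps1 to Arg1 and Glud1 were not called. Nags was the 1 of 9 measured genes called higher and 0 were called lower, where 1.98% of all genes were called, 0.558% higher and 1.42% lower. Unadjusted p-values under 0.05 were seen for 3 of the 9, all higher, against 6.60% of all genes in that direction and 14.6% in either. The groups did not overlap for the same 3 genes, Nags, Slc25a15 and Gls2, against 8.27% of all genes in either direction and 3.21% with higher hypoosmotic values. The median change over the 9 genes was 0.04 on the log2 scale, beside 0.0375 over all genes.

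The promoters of Nags and Slc25a15 are shown because these 2 genes had the largest differences of the 9. Each window runs from 250 bases before to 50 bases after the annotated start, from RefSeq on the GRCr8 build, and windows were found for 8 of the 9 measured genes. Capitals mark matches, on either strand, to 5 short motifs. These were the core of the cyclic AMP response element, spelled TGACG, and the GC box that zinc finger factors of the Sp family bind, spelled GGGCGG. The TATA box near many start sites was searched as TATAAA, the box bound by the nuclear factor Y complex as CCAAT, and the E box, which clock and Myc factors bind, as CACGTG. The Nags window is at chr10:87598266-87598565 on the plus strand, and that of Slc25a15 at chr16:76336620-76336919 on the plus strand.
Nags: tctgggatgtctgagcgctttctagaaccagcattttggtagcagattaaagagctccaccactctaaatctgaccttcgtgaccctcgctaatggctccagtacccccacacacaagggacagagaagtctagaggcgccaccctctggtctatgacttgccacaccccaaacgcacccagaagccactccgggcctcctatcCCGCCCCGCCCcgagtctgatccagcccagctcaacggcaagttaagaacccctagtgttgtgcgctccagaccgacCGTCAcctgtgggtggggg
Slc25a15: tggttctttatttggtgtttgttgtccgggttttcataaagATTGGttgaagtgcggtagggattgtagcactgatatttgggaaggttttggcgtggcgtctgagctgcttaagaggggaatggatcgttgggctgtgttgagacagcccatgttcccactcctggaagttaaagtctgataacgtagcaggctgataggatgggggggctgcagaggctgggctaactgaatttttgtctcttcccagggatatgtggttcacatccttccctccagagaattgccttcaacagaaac

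In the Nags window the capitals are 2 GC boxes on the minus strand that share a base, from −46 to −36 relative to the start, and a TGACG match on the minus strand at 32 to 36. GC boxes were found in 33.1% and TGACG in 21.2% of all 33469 promoter windows of this length. The Slc25a15 window held 1 CCAAT match, on the minus strand at −209 to −205, a motif present in 37.5% of windows. Of the 2 Gls2 windows, 1 held 2 TGACG matches, 2 GC boxes and 1 CCAAT match, and the other held none of the 5 motifs. The Cps1 and Otc windows held none either. Among the other genes that were not called, the Glud1 window held 2 GC boxes, that of Asl 1 GC box and that of Ass1 1 TATAAA match. TATAAA was found in 14.2% of all windows. The CACGTG motif was absent from the windows of all 8 genes, as it was from most windows (present in 6.42%). A match is a description of the letters only.

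Nags (probe set 10738522), the N-acetylglutamate synthase, read 7.51, 8.21, 8.21 and 8.21 in hypoosmotic replicates 1 to 4, against 6.44, 6.18, 6.37 and 7.22 in normoosmotic replicates 1 to 4. Every hypoosmotic sample lay above every normoosmotic one, and the nearest pair was hypoosmotic replicate 1 and normoosmotic replicate 4. The means were 8.04 ± 0.35 in hypoosmotic and 6.55 ± 0.46 in normoosmotic samples (SD, n = 4 each). The log2 change was 1.48 with a standard error of 0.22, or 2.79-fold (95% interval 2.02 to 3.87; limma, adjusted p = 0.00474). Over all genes, 6 had a larger absolute change and 37 a smaller p. In the GRCr8 annotation an uncharacterised noncoding gene overlaps Nags, and whether its RNA adds to the probe set's signal was not tested.

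The clock genes differed strongly within the normoosmotic group, so the Nags values are set beside them. A clock score, in which the mean of Dbp and Per3 was subtracted from that of Bmal1 and Npas2, was −2.81, 1.27, −3.39 and 1.49 in normoosmotic replicates 1 to 4, and 1.38, 1.09, −0.52 and −0.06 in hypoosmotic replicates 1 to 4. Nags was 6.18 and 7.22 in the normoosmotic samples with the high scores and 6.44 and 6.37 in those with the low ones. With the score as a covariate the Nags change was 1.43 ± 0.24 (SE; limma, adjusted p = 0.0177).

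**Figure D1:**
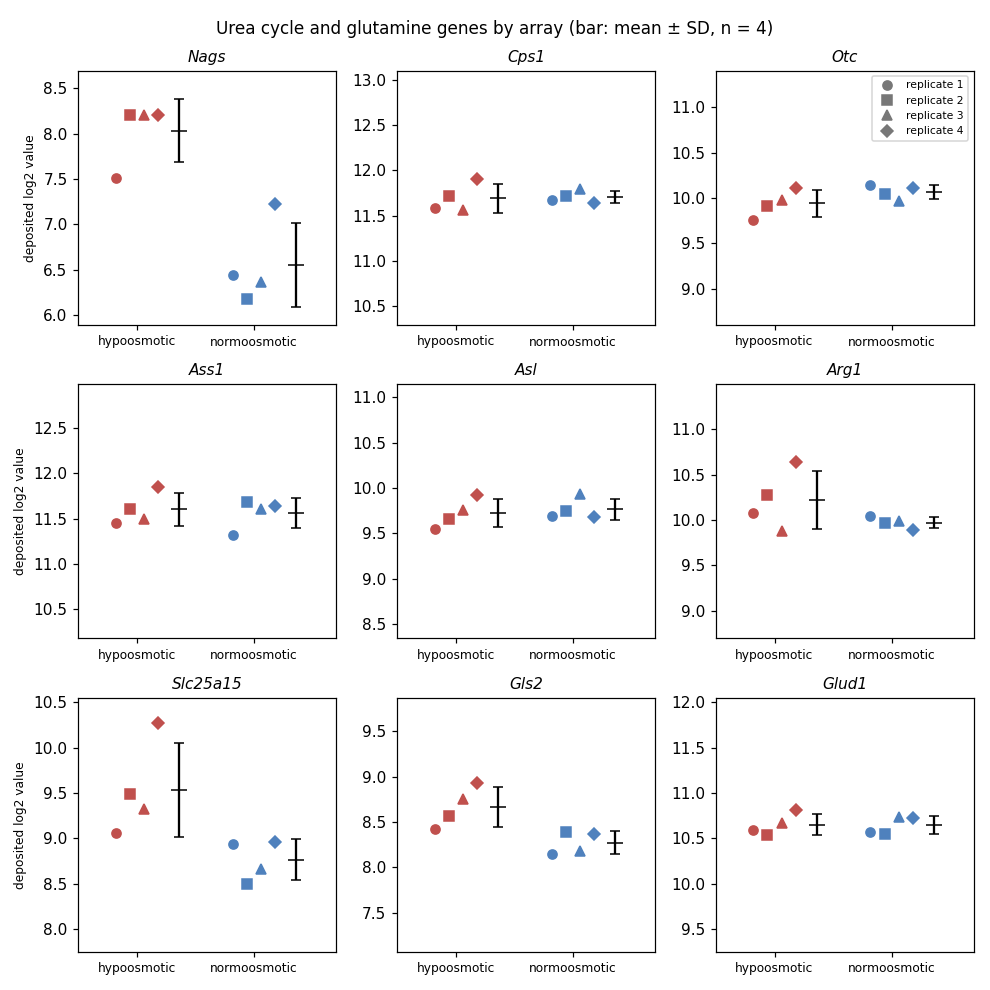
Deposited log2 values of the 9 measured genes on each array, with hypoosmotic samples in red on the left and normoosmotic samples in blue on the right of each panel; marker shapes give the replicate, and bars the mean ± SD (n = 4). Every panel spans the same number of log2 units around its own centre, and the groups are apart for Nags, Slc25a15 and Gls2.

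Cps1 (probe set 10924088), the carbamoyl phosphate synthetase that Nags's product activates, read 11.58, 11.72, 11.56 and 11.90 in hypoosmotic samples, against 11.67, 11.72, 11.79 and 11.64 in normoosmotic samples. The groups overlapped, and the change was −0.015 (95% interval −0.26 to 0.23; limma, adjusted p = 0.973). On the linear scale this interval covers 0.836-fold to 1.17-fold. Otc (probe set 10936865), which forms citrulline, read 9.76, 9.91, 9.98 and 10.11 in hypoosmotic samples, against 10.14, 10.04, 9.97 and 10.11 in normoosmotic samples. Its groups overlapped too, with a change of −0.13 and an interval of −0.37 to 0.12 (adjusted p = 0.679).

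Among the cytosolic enzymes none was called. Ass1, which condenses citrulline with aspartate, had a mean of 11.60 ± 0.18 in hypoosmotic and 11.56 ± 0.16 in normoosmotic samples (SD, n = 4 each). Its change was 0.04 (95% interval −0.23 to 0.31; limma, adjusted p = 0.928). Asl, which splits argininosuccinate into arginine and fumarate, had means of 9.72 ± 0.16 in hypoosmotic and 9.76 ± 0.12 in normoosmotic samples and a change of −0.04 (−0.29 to 0.21; adjusted p = 0.923). These intervals exclude a change as large as that of Nags. Signals of Cps1 and Ass1 lay high in the table's range, whose top value was 13.26, and compression of bright signals was not tested.

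Arg1 (probe set 10702214), the arginase that releases urea, read 10.08, 10.28, 9.88 and 10.64 in hypoosmotic samples, against 10.04, 9.97, 9.99 and 9.89 in normoosmotic samples. Its hypoosmotic values spanned 0.76 and its normoosmotic values 0.15 log2 units, and they overlapped. The change was 0.25 (95% interval −0.07 to 0.57; limma, adjusted p = 0.498), and 0.11 without hypoosmotic replicate 4.

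Slc25a15 (probe set 10789143), the mitochondrial ornithine carrier, read 9.06, 9.49, 9.32 and 10.27 in hypoosmotic samples, against 8.94, 8.50, 8.66 and 8.96 in normoosmotic samples. The groups did not overlap, though hypoosmotic replicate 1 lay only slightly above normoosmotic replicate 4. The change was 0.77 ± 0.22 (SE), or 1.71-fold (95% interval 1.24 to 2.35), and did not pass the test over all genes (limma, adjusted p = 0.0886). Under 17 other settings and left-out arrays the adjusted p ranged from 0.0563 to 0.209, and the change was 0.53 without hypoosmotic replicate 4. A noncoding RNA gene, Lnc-hc, overlaps Slc25a15 on the same strand in the GRCr8 annotation, and its share of this signal was not tested.

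Gls2 (probe set 10893008), the glutaminase of periportal hepatocytes, read 8.42, 8.57, 8.75 and 8.93 in hypoosmotic samples, against 8.15, 8.39, 8.18 and 8.37 in normoosmotic samples. The groups did not overlap, though hypoosmotic replicate 1 lay only slightly above normoosmotic replicate 2. The change of 0.40 ± 0.13 (SE), or 1.31-fold with an interval of 1.08 to 1.60, was not called (limma, adjusted p = 0.150, and 0.111 to 0.335 under the 17 alternatives). A protein-coding gene, Spryd4, overlaps Gls2 in the GRCr8 annotation, and its share of the Gls2 signal was not tested. Glud1, the glutamate dehydrogenase, had means of 10.65 ± 0.12 in hypoosmotic and 10.65 ± 0.10 in normoosmotic samples (SD, n = 4 each) and a change of 0.005 (−0.23 to 0.24; adjusted p = 0.994).

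**Figure D2:**
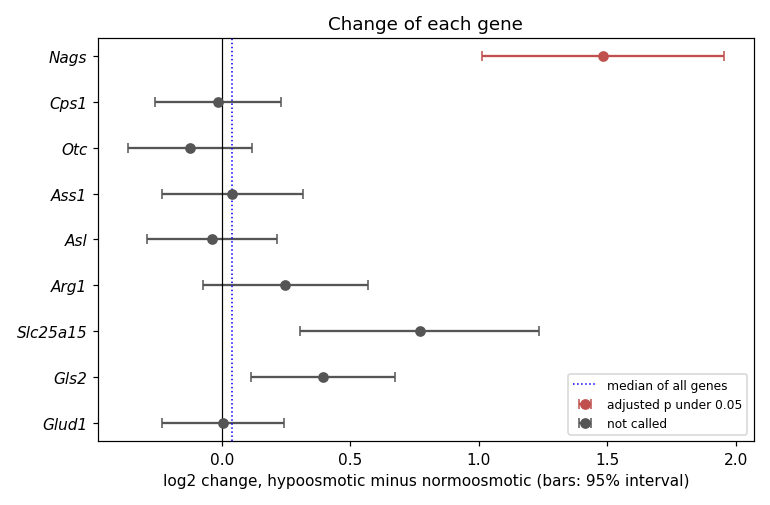
Log2 change, hypoosmotic minus normoosmotic, of each measured gene on the horizontal axis, with 95% intervals from limma; the called gene is red, the others grey, and the dotted line is the median of all genes (0.0375). Nags stands at 1.48, Slc25a15 at 0.77 and Gls2 at 0.40, and the intervals of the other 6 genes include 0.

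Whether Nags changed by more than its partners was tested on the difference between both genes within each array. Nags had the largest change of the 9 genes in these same arrays, and every difference holds its values. The tests are therefore not independent of that result or of each other. The exact two-sided permutation test over the 70 assignments of 8 arrays cannot give a p below 0.0286, and 8 differences were compared. The change of Nags exceeded that of Cps1 by 1.50 ± 0.30 (SE), that of Otc by 1.61 ± 0.25, that of Ass1 by 1.44 ± 0.28 and that of Asl by 1.52 ± 0.29. It exceeded that of Arg1 by 1.24 ± 0.32, that of Gls2 by 1.09 ± 0.25 and that of Glud1 by 1.48 ± 0.26. In each of these 7 the 4 hypoosmotic differences lay above the 4 normoosmotic ones (exact permutation p = 0.0286, adjusted over the 8 differences p = 0.0327). Against Slc25a15 the excess was 0.71 ± 0.27, the groups overlapped, and the exact permutation p was 0.0571 before and after adjustment.

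Samples of one group also differed in a way the genes shared. Hypoosmotic replicate 4 had the highest hypoosmotic value, or shared it, for 9 of 9 genes, and hypoosmotic replicate 1 had the lowest for 6 of 9. The mean deviation from the group mean over the 9 genes was 0.29 in hypoosmotic replicate 4 and −0.23 in replicate 1, and it lay between −0.06 and 0.10 in the other 6 arrays. The mean over 6 hepatocyte markers was likewise highest in hypoosmotic replicate 4, at 11.94, against 11.80 to 11.83 in the other hypoosmotic and 11.83 to 11.87 in the normoosmotic samples. The array median of hypoosmotic replicate 4 was 4.07, against 4.14 to 4.16 in the other hypoosmotic and 4.05 to 4.15 in the normoosmotic arrays. The part of array brightness in this pattern was not tested.

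**Figure D3:**
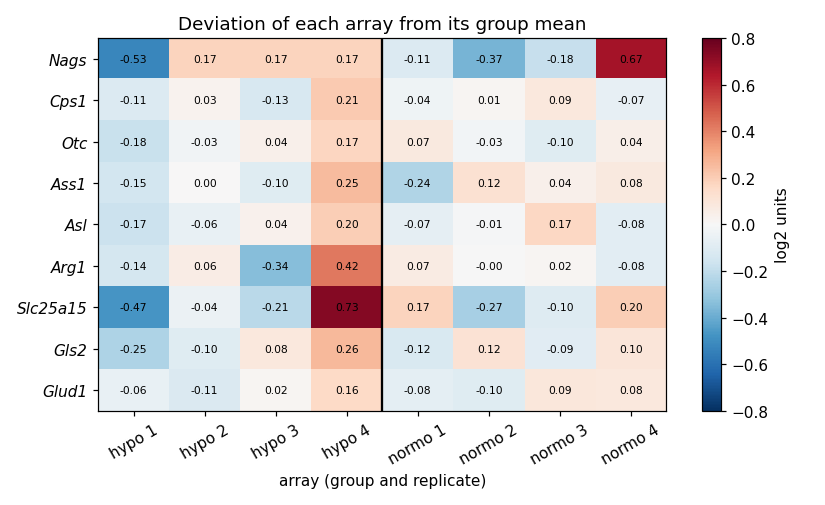
Deviation of each array from its group mean, in log2 units, for the 9 genes (rows) and the 8 arrays (columns, hypoosmotic left of the line); red is above and blue below the mean. Hypoosmotic replicate 4 is above its group mean for all 9 genes, and normoosmotic replicate 4 stands out for Nags.

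The genes with the pattern most like that of Nags were sought over all named genes by the root mean square difference of the 8 values after each gene's mean was removed. The 5 nearest were Socs3, an inhibitor of cytokine signalling, at 0.196, Angptl4, an inhibitor of lipoprotein lipase, at 0.259, the metalloproteinase inhibitors Timp1 at 0.276 and Timp3 at 0.320, and Serpinb2, a plasminogen activator inhibitor, at 0.335. Timp1 rose by 0.96 ± 0.20 (SE; limma, adjusted p = 0.0282), with overlapping groups. All 5 rose in hypoosmotic samples, which this measure favours. Among the other 8 genes of the cycle and of glutamine metabolism, Slc25a15 was nearest, at 0.482 with 43 genes nearer, and Gls2 followed at 0.623 with 296 genes nearer. The other 6 stood between 0.734 for Arg1 and 0.859 for Otc.

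Of 82 related genes in the lists of side reactions, transporters, regulators, zonation markers and clock genes, 1 was called higher and 3 lower, beside 0.558% and 1.42% of all genes. Among 17 measured genes listed for side reactions of glutamate and ammonia, 0 were called by limma. An unadjusted p under 0.05 was seen for 2, beside 14.6% of all genes in either direction. The median change there was 0.06, beside 0.0375 over all genes. These 2 were Gpt2, the mitochondrial alanine aminotransferase, at 0.33 ± 0.13 (SE; adjusted p = 0.240), and Pycr1, an enzyme of proline synthesis, at 0.27 ± 0.12 (adjusted p = 0.308).

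Of 21 measured transporters of glutamine, glutamate, arginine, ammonium and urea, 1 was called lower and 0 higher, beside 1.42% and 0.558% of all genes. An unadjusted p under 0.05 was seen for 2 with higher and 1 with lower values, beside 14.6% of all genes in either direction. The median change was 0.005, beside 0.0375 over all genes. Slc38a2, a plasma membrane carrier of neutral amino acids including glutamine, read 8.90, 8.63, 8.71 and 9.07 in hypoosmotic samples, against 10.45, 9.70, 10.41 and 9.99 in normoosmotic samples. It fell by 1.31 on the log2 scale, without overlap (SE 0.17; limma, adjusted p = 0.00264). Slc38a3, the main glutamine transporter of hepatocytes, had means of 11.22 ± 0.09 in hypoosmotic and 11.22 ± 0.11 in normoosmotic samples (SD, n = 4 each; change 0.005, interval −0.23 to 0.24). Slc25a22, a mitochondrial glutamate carrier, had a change of 0.49 ± 0.17 (SE; adjusted p = 0.180) with groups that did not overlap. These last 2 genes were chosen after their values were seen.

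Among 14 measured regulators, Foxa2, a hepatocyte transcription factor, was called higher and 0 were called lower, beside 0.558% and 1.42% of all genes. The median change was 0.14, beside 0.0375 over all genes. Unadjusted p-values under 0.05 were seen for 5 regulators with higher and 2 with lower values, beside 14.6% of all genes in either direction. Foxa2 read 5.42, 5.81, 5.95 and 6.07 in hypoosmotic samples, against 5.03, 5.08, 4.92 and 5.31 in normoosmotic samples. Its change was 0.73 ± 0.15 (SE; limma, adjusted p = 0.0237). The call was lost without hypoosmotic replicate 2 (adjusted p = 0.0801) or 3 (0.0713), without normoosmotic replicate 1 (0.0717), 2 (0.0517) or 3 (0.0831), and with the clock score in the fit (0.0729). In these fits the change was 0.67 to 0.73. Cebpa, which encodes a transcription factor of metabolic liver genes and was chosen after its values were seen, had a change of 0.50 (adjusted p = 0.285), and 0.74 without normoosmotic replicate 4 (0.0324). Creb1 and Sirt5 were also chosen after their values were seen. Creb1 had a change of −0.56 ± 0.16 (SE; limma, adjusted p = 0.104) and Sirt5 one of 0.34 ± 0.11 (adjusted p = 0.131), the latter without overlap.

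The zonation markers were read because Gls2 and the urea cycle enzymes belong to periportal and Glul to perivenous hepatocytes. Of 10 measured periportal markers, Tat, which starts tyrosine breakdown, fell by 0.76 on the log2 scale (SE 0.11; limma, adjusted p = 0.00408), and 0 were called higher. Over all genes 1.42% were called lower and 0.558% higher. Changes were positive for 5 markers and negative for 5, and the median change was −0.05. An unadjusted p under 0.05 was seen for 3, all lower, beside 14.6% of all genes in either direction and 1156 of 14506 lower. The other 2 of these 3, chosen after their values were seen, were the gluconeogenic enzymes Pck1, at −0.78 ± 0.22 (SE; adjusted p = 0.0963), and G6pc1, at −0.91 ± 0.27 (adjusted p = 0.109). The summed signal of the list, to which its brightest members add most, was 12.48 to 12.68 in hypoosmotic samples, against 12.92 to 13.26 in normoosmotic samples, on the log2 scale and without overlap. The unweighted mean over the same 10 markers did overlap, at 8.30 to 8.63 in hypoosmotic and 8.55 to 8.84 in normoosmotic samples. Of 12 measured perivenous markers 0 were called by limma, 3 had an unadjusted p under 0.05 (2 upward and 1 downward, beside 14.6% of all genes in either direction), and the median was −0.02. The summed signal was 12.72 to 13.03 in hypoosmotic samples, against 12.85 to 13.19 in normoosmotic samples. The smallest p-values there were those of Tbx3, a transcription factor, with a change of 0.58 ± 0.17 (SE; adjusted p = 0.0956), and of Axin2, a target of Wnt signalling, with −0.48 ± 0.14 (adjusted p = 0.0977).

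**Figure D4:**
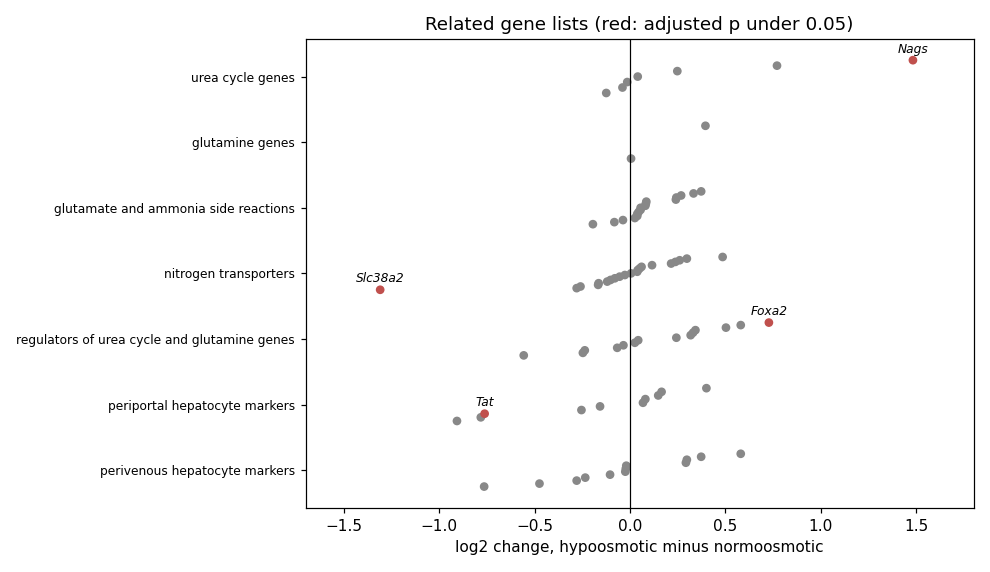
Log2 change, hypoosmotic minus normoosmotic, of every measured gene (points) in the urea cycle, glutamine and related lists (rows); the clock genes are not drawn, and red points had an adjusted p under 0.05. Of the genes drawn, Nags and Foxa2 are called higher, Slc38a2 and Tat lower.

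Clock genes made up the last list, in which 1 of 12 was called, beside 1.98% of all genes. This was Nr1d2, a repressor of the clock, which fell by 0.78 on the log2 scale (SE 0.17; limma, adjusted p = 0.0318). The median change of the list was −0.39, beside 0.0375 for all genes, with 10 of 12 genes negative. An unadjusted p under 0.05 was seen for 3, all lower, beside 14.6% of all genes in either direction and 1156 of 14506 lower. The other 2 of these, chosen after their values were seen, were the clock repressors Per1, at −0.70 ± 0.21 (SE; adjusted p = 0.111), and Cry2, at −0.49 ± 0.16 (adjusted p = 0.156). The Nr1d2 call was lost without hypoosmotic replicate 1 or 2, without normoosmotic replicate 1 or 3 and with the clock score in the fit, with adjusted p-values from 0.0735 to 0.111 and changes of −0.73 to −0.63. Macrophage markers, whose summed signal was 9.60 to 10.26 in hypoosmotic and 9.51 to 10.03 in normoosmotic samples, overlapped between the groups. So did sinusoidal endothelial markers, at 10.14 to 10.48 in hypoosmotic and 9.94 to 10.50 in normoosmotic samples, and hepatocyte markers, at 14.75 to 14.89 in hypoosmotic and 14.82 to 14.86 in normoosmotic samples. Stellate cell markers at 9.40 to 9.78 in hypoosmotic and 9.35 to 10.15 in normoosmotic samples, cholangiocyte markers at 6.74 to 7.52 in hypoosmotic and 6.97 to 7.47 in normoosmotic samples, and lymphocyte and neutrophil markers at 6.61 to 7.03 in hypoosmotic and 6.72 to 6.86 in normoosmotic samples overlapped as well. The erythroid markers, at 6.83 to 7.82 in hypoosmotic and 6.98 to 8.50 in normoosmotic samples, overlapped as a sum, but 4 of 4 had negative changes, with a median of −0.17. Other lists also leaned to 1 sign. Changes were positive for 4 of 4 sinusoidal endothelial markers (median 0.17) and 7 of 8 macrophage markers, and negative for 6 of 7 stellate cell markers. The endothelial marker Pecam1 had a change of 0.20 ± 0.11 (SE; limma, adjusted p = 0.467). Its groups did not overlap, as for 8.27% of all genes in either direction. Hbb, a haemoglobin chain whose signal may include that of its close copies, had a change of −0.85 ± 0.35 (SE; limma, adjusted p = 0.279), and Alas2, the haem synthesis enzyme of red cell precursors, one of −0.23 ± 0.11 (adjusted p = 0.337), with groups that did not overlap. The part of residual blood cells in the results above was not tested.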

How the data were processed

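Total RNA from 8 samples of perfused liver was extracted with Trizol and biotin-labelled for Affymetrix arrays, per the labels' protocols. Per the submitters' processing notes, Transcriptome Analysis Console (version 4.0) was used; how probes were summarised and arrays normalized is not given in the sources used. The authors' deposited values are log2 expression values, as read from their range (0.88 to 13.26), and were used unchanged for 27596 probe sets. Arrays have no read depth, and 4 arrays per group limit the precision. Of the probe sets, 15310 had 1 gene symbol, 323 had several and 11963 no name in the annotation used; 15279 of the 15310 were matched by gene ID to current symbols (RefSeq, GRCr8). The probe set with the highest mean was taken per gene, which gave 14506 genes.

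Groups were compared with limma 3.58.1 in R 4.3.3 (lmFit and eBayes, two-sided, Benjamini-Hochberg over 14506 genes), after a test on simulated data. Low values were kept and may be background. The genes, lists and tests were chosen with earlier results of these data known. Of the 9 planned differences from Nags, the one with Glul could not be made. Named were the 9 measured genes, called genes of each related list (the 2 smallest p-values where none was called) and the 5 genes nearest to Nags; others are said to be chosen later. The planned search for genes nearest to Glul was not run. Alternatives were 9 other settings, each array left out in turn, and other thresholds. Same-numbered samples of the groups correlated at 0.028 to 0.173 in their deviations from the group means.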

Additional observations from a re-analysis of the deposited data

Results flagged for a closer look

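In hypoosmotic replicate 1 Nags read 7.51, while the other 3 hypoosmotic samples all read 8.21 at the table's 2 decimals. The gap made up the group's whole range, above Dixon's 95% critical value for 4 samples. This was the 1 value marked in 18 groups of 4 samples, and chance marks about 1 in 20 groups. Without this sample the Nags change was 1.66 ± 0.21 (SE; limma, adjusted p = 0.0043).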

How the results depend on the processing

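The rise of Nags kept its call under all 17 alternatives, with log2 changes of 1.36 to 1.71 and adjusted p-values of 0.00168 to 0.025, and without single arrays the change likewise ranged from 1.36 to 1.71. The other 8 genes were called in none of the 17. At an adjusted p under 0.1 there were 2 called genes, Slc25a15 being the second. Of all 14506 genes, 546 had a smaller p than Slc25a15, so at least that many also passed this looser threshold. With replicate numbers as a block (replicate block), the Nags change was 1.48 ± 0.18 (SE; limma, adjusted p = 0.00889). In that fit 5 related genes were called lower in place of 3, Creb1 and Per1 being added. Same-numbered samples correlated at 0.028 to 0.173 and differently numbered samples of the 2 groups at −0.302 to 0.206. Whether same-numbered samples are pairs was not tested. The count of related genes called higher was 0 with the clock score as a covariate and ranged from 0 to 3 without single arrays; the 3 genes, Cebpa, Foxa2 and Tbx3, were called without normoosmotic replicate 4. Uncalled changes near 0 took the other sign in places: Cps1 at 0.027 after quantile normalization and 0.004 with the clock score, Asl at 0.009 with the clock score, Ass1 at −0.003 and Glud1 at −0.038 after subtraction of array medians, and Glud1 at −0.020 with array weights. Without single arrays they ranged from −0.085 to 0.028 for Cps1, −0.043 to 0.090 for Ass1, −0.106 to 0.017 for Asl and −0.048 to 0.042 for Glud1. The cause of these shifts was not tested. The excess of Nags over each other gene stayed positive under every alternative run, at 0.583 or more. With an array left out, the exact permutation test was not run, so those differences are values only.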
